A study of Arabidopsis thaliana with 26 samples.

Results

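AT1G51860 is a gene of the leucine-rich repeat receptor kinase family on the right arm of chromosome 1 of Arabidopsis thaliana. Its locus served as 1 of 13 viewpoints in a set of chromosome conformation capture experiments (4C). In 4C, chromatin is crosslinked, cut with a restriction enzyme and ligated, and every fragment that was joined to one chosen fragment, the viewpoint, is amplified by inverse PCR and sequenced. The libraries described here are AT1G51860 A and AT1G51860 B, 2 biological replicates of 26 libraries in all. The other 24 libraries, 2 for each of 12 viewpoints, served for comparison. All 26 came from the aerial tissue of untreated Col-0 seedlings, 14 days old, grown in long days, so that no genotype or treatment separated the groups. Each library stands for pooled seedlings, and the letters A and B name the biological duplicates. This tissue holds many cell types and the values are averages over all of its nuclei.

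The nucleus of Arabidopsis is small, and its pericentromeric heterochromatin gathers in dense chromocentres, while the gene-rich arms extend from them. H3K9me2 and H3K27me1 are marks of heterochromatin. H3K27me3, laid down by Polycomb group complexes, marks genes held silent, and H3K4me3, H3K36me3 and H3K9 acetylation mark transcribed genes. Receptor kinases with leucine-rich repeats span the plasma membrane and perceive peptides and other ligands outside the cell, and many of their genes stand in tandem clusters.

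The viewpoint was the HindIII fragment of 5783 bp on chromosome 1 from 19255345 to 19261127 (TAIR10), 4.17 Mb from the centromere and 11.2 Mb from the right telomere. The primers that read it out define which ligation products could be seen, and their sequences are given 5′ to 3′, with the bases of the restriction sites in capitals. Primer 1 ends in the first bases of the HindIII site and primer 2 in the site of the second enzyme, NlaIII.
AT1G51860 primer 1, plus strand: tttctttgacctacagggAAGC
AT1G51860 primer 2, minus strand: aggagtaacaaatacttctatgCATG
Genome sequence from primer 1 to the HindIII site: tttctttgacctacagggAAGCTT
Primer 1 matched the genome once, at 19261104 to 19261125, and primer 2 once, at 19260937 to 19260962, so that the outer ends of the pair span 191 bp. This stretch lies in exon 2 of 13 of AT1G51860, which runs on the minus strand from 19261794 to 19257403. It is coding in one annotated transcript. In the other, translation starts at 19260943 and most of the stretch precedes it. The rest of the fragment reaches into AT1G51850, the neighbouring gene of the same family.

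The viewpoint lay in chromatin rich in H3K27me3 and poor in H3K36me3 and H3K4me3. H3K27me3 covered 39.1% of the bases of the viewpoint fragment and on average 31.3% of those of the 51 fragments around it, against a mean of 12.6% over the 7776 kept fragments of the arm more than 1 Mb from the centromere. H3K36me3 covered 11.4% of the viewpoint fragment (arm mean 36.2%), H3K4me3 9.25% (arm mean 21.2%) and H3K9me2 0.571% (arm mean 2.01%), and no transcription was recorded on it. H3K4me2 was near the arm mean (28.2% against 31.4%), and H3K18Ac was above it, with 70.4% on the fragment and 60.1% around it against 45.4%. The fragment thus carried more H3K27me3 and H3K18Ac, and less H3K36me3 and H3K4me3, than the arm on average. These densities come from published data that the authors assigned to fragments.

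Reads were counted at the HindIII ends of 66846 fragments. There were 1326978 such reads in replicate A and 2476584 in B, of which 72.8% and 88.7% lay on the viewpoint fragment and its 2 direct neighbours. Excluding all fragments nearer than 1 kb to the viewpoint, and those under 100 kb from any centromere, kept 65061 fragments with 348884 reads in A and 273441 in B. The kept reads were 26.3% and 11.0% of the HindIII-end reads, and 58.8% and 35.0% of the kept fragments carried any. Levels are given as RPM, HindIII-end reads per 1000000 kept HindIII-end reads of the library, averaged over the fragments of a region. The reads are PCR products without molecular identifiers and are not independent molecules, so the difference between the replicates is used as their error. Over windows of 25 fragments the replicates correlated with a Spearman rho of 0.963 on the viewpoint arm (348 windows), 0.697 on the other arm of chromosome 1 (318 windows) and 0.338 on chromosomes 2 to 5 (1937 windows). Replicate B was thus the thinner library, and single windows on other chromosomes carried much less information than those on the viewpoint arm.

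The 5 viewpoints AT1G51860, AT3G44380, SWN, hk4s and YAO formed a batch of library preparation in which sequencing adapters were ligated after the PCR, whereas the primers of the other 8 carried them. All 5 lie within 4.17 Mb of their centromere and the other 8 at least 6.42 Mb from it. Batch and distance from the centromere therefore cannot be told apart in a comparison with all 12 viewpoints, and the main values are also given against the others of the batch alone.

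The genes around the viewpoint gave the highest levels, led by AT1G51850 in A and AT1G51870 in B. The cluster of receptor kinase genes around it, AT1G51790 to AT1G51910, was read on every gene that kept a fragment. H3K27me3 covered between 9.68% (AT1G51790) and 71.8% (AT1G51900) of the bases of the fragments of the genes in this stretch. AT1G51900 is annotated as a regulator of Vps4 activity and not as a kinase. Among the genes annotated as kinases the highest was 65.5% (AT1G51870). AT1G51805 had the highest transcription density, 33.2%. AT1G51850 had a level of 7983 RPM per fragment in A and 3375 in B on its 1 kept fragment, which it shares with AT1G51840, and AT1G51870, on the other side, had 4221 and 6138 on 4 fragments. At the centromere-side end of the cluster AT1G51790 had 1409 and 1597 RPM, 43.4 kb from the viewpoint, and IOS1 (AT1G51800), a kinase named for the impaired susceptibility of its mutant to an oomycete, had 1648 and 2441. On the telomere side RHS6 (AT1G51880), named for its expression in root hairs, had 3363 and 3082, and AT1G51910 had 4126 and 3582 at 23.1 kb. AT1G51890 had 2845 in A and 4250 in B, where 1 fragment of 514 bp reached 3159 and 11700 RPM. Within the cluster levels did not fall evenly with distance. On the centromere side B rose from 3375 RPM on AT1G51850 to 5337 on AT1G51830, further out. On the telomere side AT1G51900 had 1595 and 2640 RPM, less than AT1G51910, which lies beyond it. Neighbouring fragments also differed several-fold. On AT1G51805 they ran in A from 51.6 RPM (606 bp) to 3829 RPM (5274 bp, reaching into AT1G51810). AT1G51860 itself kept no fragment, since its 2 fragments are the viewpoint fragment and a direct neighbour. Some reads of these related genes had several matches in the genome and were shared out between fragments by the authors, for example on AT1G51870, where a fragment of 120 bp had fractional counts.

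The contact zone had a steep core, which takes in the cluster, and a broad, nearly flat shoulder. On the centromere side the mean level was 6370 RPM per fragment in A and 4950 in B at 1 to 10 kb, 204 and 250 at 0.2 to 0.5 Mb, and 89.5 and 107 at 0.5 to 1 Mb. From there it hardly changed over the next megabase, with 82.4 and 97.3 at 1 to 1.5 Mb and 99.1 and 111 at 1.5 to 2 Mb, and came to 69.1 and 60.7 at 2.5 to 3 Mb. The telomere side followed the same course, with 175 and 223 at 0.2 to 0.5 Mb, 85.9 and 96.5 at 0.5 to 1 Mb, 84.9 and 88.7 at 1.5 to 2 Mb and 66.2 and 66.3 at 2.5 to 3 Mb. Between 0.5 and 3 Mb nearly every fragment was read, from 86.1% to 97.5% of them in each interval and library. The shoulder was therefore made of many fragments and was present in both replicates and on both sides.

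**Figure D1:**
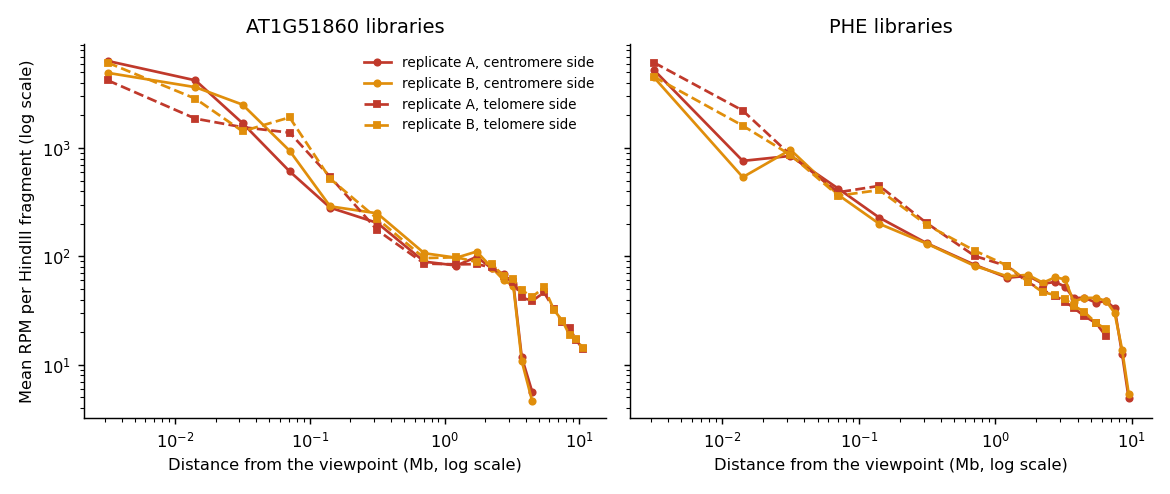
Mean RPM per HindIII fragment (log scale) by distance from the viewpoint (Mb, log scale) for the AT1G51860 libraries (left) and the PHE libraries on the same arm (right). Colours are replicates, solid lines the centromere side and dashed lines the telomere side. The AT1G51860 lines run nearly flat between 0.5 and 2 Mb, from 82.4 to 111 RPM, before the centromere side drops to 11.7 and 10.8 RPM at 3.5 to 4 Mb.

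The level at 0.5 to 1 Mb exceeded that at 2 to 3 Mb by 0.27 in A and 0.48 in B on the log2 scale (mean 0.38 ± 0.15, SD, n = 2). For PHE, the viewpoint at the PHERES1 locus 5.01 Mb further out on the same arm, the same ratio was 0.84, and for AT3G44380, a proximal viewpoint of chromosome 3, it was 0.86. The mean of 11 other viewpoints was 0.98, and AT1G51860 ranked 11 of 12, just above YAO (0.27). SWN raised that mean with 3.43, while every other compared viewpoint had 0.875 (FLC) or less. The difference of -0.61 did not stand out in an exact permutation test over viewpoints, two-sided (p = 0.25). Against the others of the batch with both distances it was -1.14 (exact permutation over 4 viewpoints, p = 0.75). The size of that difference rested on SWN, since AT3G44380 lay at 0.86 and YAO below AT1G51860. This measure was chosen after the profile had been seen.

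A zone was marked out as the run of windows of 25 fragments around the viewpoint with more than 2 times the median level of the arm. It reached from 18497263 to 20170001 on chromosome 1, 1.67 Mb or 10.9% of the arm, with 0.761 Mb towards the centromere and 0.912 Mb towards the telomere. Alone, replicate A gave 1.6 Mb and B 1.63 Mb. PHE had a zone of 1.99 Mb and AT3G44380 one of 1.74 Mb, and YAO had the shortest, 0.492 Mb. Since the shoulder was flat, the length turned on the level at which the run was ended: it was 1.08 Mb at 3 times the median and 5.06 Mb at 1.5 times.

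Within 1 Mb of the viewpoint lay 31.4% of the kept reads in A and 38.2% in B (34.8% ± 4.83, SD, n = 2). Within 10 kb it was 3.6% and 3.94%, within 100 kb 15.7% and 20.3%, and within 4 Mb 52.7% and 60.9%. The share within 1 Mb ranged over the other viewpoints from 23.1% (FLC) to 47.9% (hk4s), with a mean of 32.0%, and AT1G51860 ranked 6 of 13. The difference of 2.80 percentage points was small beside the spread over viewpoints (exact permutation over 13 viewpoints, two-sided, p = 1.0). With 1 viewpoint against 12, no p under 0.0769 is possible. Against the 4 others of the batch, with a mean of 41.2%, the difference was -6.40 points, and with replicate A alone it was -0.62 points. The arm as a whole stood out more: 63.8% of the kept reads of A and 72.3% of those of B lay on the viewpoint arm, the highest mean of all 13 viewpoints (68.1% ± 6.03, SD, n = 2). The next was AT3G44380 with 59.6%, and the mean of the others was 53.3% (difference 14.8 points, exact permutation, two-sided, p = 0.0769, the smallest possible). Against the 4 others of the batch the difference was 13.4 points (exact permutation over 5 viewpoints, p = 0.4). Such a share also depends on the length of the arm. It was 15.3 Mb here, 9.86 Mb for AT3G44380 and 3.95 Mb for SWN, hk4s and YAO. Per fragment of the viewpoint arm, AT1G51860 had 73.4 (A) and 83.2 RPM (B). That was below all 4 others of the batch, which ran from 112 (AT3G44380 A) to 234 RPM (hk4s B). PHE, on the same arm, had 65.1 and 63.8 RPM. Of the reads on the arm, 50% lay within 1.05 Mb in A and 0.793 Mb in B, and 80% within 3.55 and 3.28 Mb. Reads at NlaIII ends, counted apart, gave another share, 44.1% in A and 32.3% in B, as described further on.

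**Figure D2:**
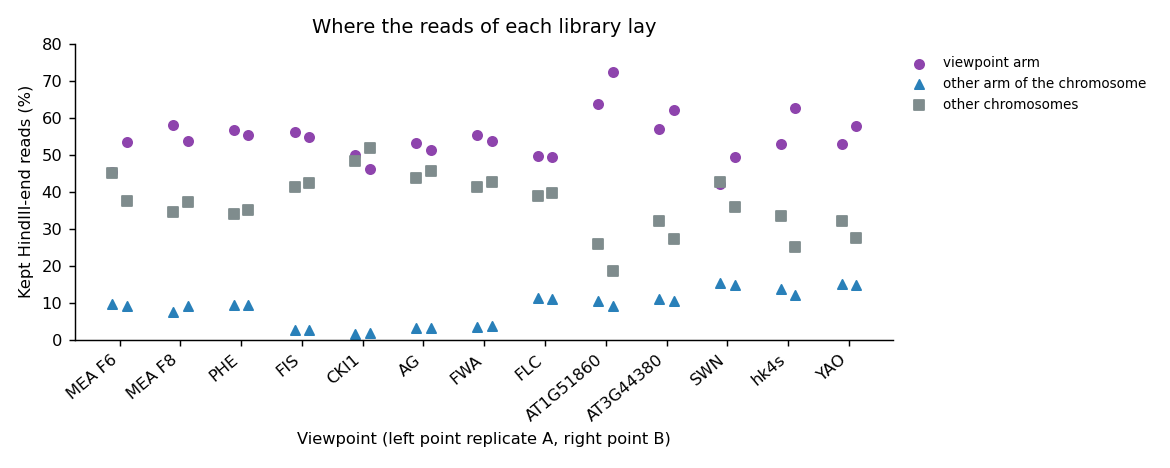
Percentage of kept HindIII-end reads on the viewpoint arm (circles), the other arm of the same chromosome (triangles) and the other chromosomes (squares) for each of the 26 libraries, with replicate A at the left and B at the right of each viewpoint. The AT1G51860 libraries have 63.8% and 72.3% on the viewpoint arm and 25.8% and 18.6% on other chromosomes.

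The centromere side and the telomere side differed in their far ends. Over intervals of 0.2 on the log10 scale that both sides fill, the centromere side was lower by 0.50 in A and 0.44 in B on the log2 scale (mean -0.47 ± 0.04, SD, n = 2). At 3 to 3.5 Mb both sides were still alike, with 55.7 (A) and 53.3 RPM (B) towards the centromere and 58.6 and 61.4 towards the telomere. At 3.5 to 4 Mb the centromere side had 11.7 and 10.8 RPM and the telomere side 41.8 and 48.8. With 500 kb in place of 100 kb kept out around centromeres the mean difference was -0.16. The other 8 viewpoints with both sides long enough averaged -0.25, from -1.01 (YAO) to 0.05 (FLC), and AT1G51860 did not stand apart (difference -0.21, exact permutation over 9 viewpoints, two-sided, p = 0.444, smallest possible 0.111). The difference was -0.04 against the 3 others of the batch and -0.02 with 500 kb kept out around centromeres in all libraries.

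Along the same stretch H3K9me2 was higher nearer to the centromere, up to 0.4 Mb from it. Between 3.1 and 3.4 Mb from the centromere it covered 1.61% of the bases on average and the level was 82.6 (A) and 87.6 RPM (B). Between 1.3 and 1.6 Mb the density was 18.5% and the level 64.4 and 59.7. Between 0.4 and 0.7 Mb the density was 35.3% and the level 29.5 and 31.3, and in the last interval, 0.1 to 0.4 Mb, the density was 13.3% and the level 5.08 and 3.40 on 604 fragments. Fragments were shorter there, as the equally wide interval at 3.1 to 3.4 Mb held 160. Part of this last interval was hardly read. Windows of 50 fragments from 15265742 to 15353466 had 0.0252 to 0.0774 RPM in A and 0 in B, with H3K9me2 densities of 0 to 8.58%. The PHE libraries were hardly read there either, with 0 to 0.00655 RPM in A and 0.00443 to 0.215 in B. H3K36me3 covered at most 0.325% there and transcription was 0, so that few reads of any kind were recorded on these windows. The left arm, across the centromere, showed a like course at lower levels: 4.36 and 3.86 RPM at 0.1 to 0.4 Mb, 13.4 and 11.7 at 0.7 to 1 Mb, then a maximum of 29.9 and 26 at 1.6 to 1.9 Mb, and 16.6 and 12.7 at 3.7 to 4 Mb. The highest level of the left arm thus lay close to the centromere but outside the part richest in H3K9me2. How far the density itself, the distance, the length of the fragments or the assignment of reads to repeated sequence entered into these levels was not tested.

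**Figure D3:**
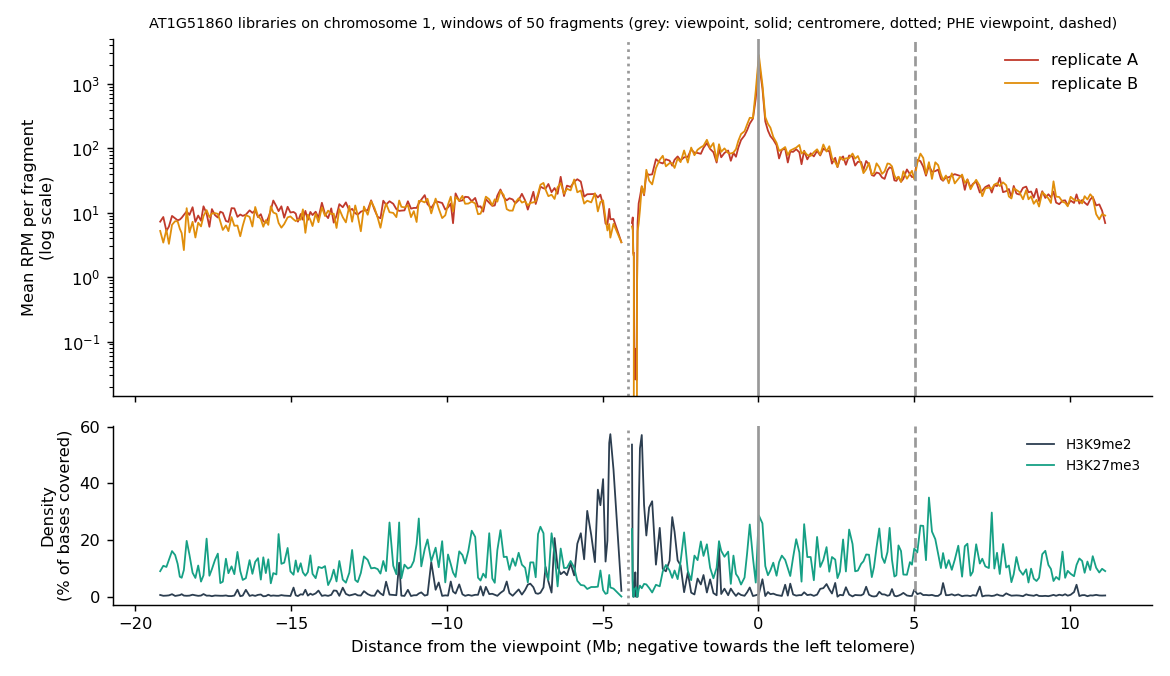
Mean RPM per fragment (log scale, upper panel) of AT1G51860 A and B and the densities of H3K9me2 and H3K27me3 (percentage of bases covered, lower panel) in windows of 50 fragments along chromosome 1, by distance from the viewpoint in Mb. Both replicates fall to 0.0774 RPM or less in some windows next to the centromere and show a second rise just beyond the PHE viewpoint, 5.01 Mb to the right.

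Towards the telomere the level declined slowly, to 32.7 and 32.1 RPM at 6 to 7 Mb and 14.1 and 14.2 at 10 to 11.2 Mb, with a rise at 5 to 6 Mb (46.6 and 52.0 RPM, against 38.8 and 42.3 at 4 to 5 Mb). This rise began beside the PHE viewpoint, whose gene PHERES1 is an imprinted MADS-box gene under Polycomb control. Within 250 kb of the PHE viewpoint the AT1G51860 libraries had 49.2 (A) and 52.1 RPM (B), against 40 and 45.0 between 250 kb and 1 Mb from it, a log2 ratio of 0.30 and 0.21. In 22 libraries of the other 11 viewpoints the same ratio ran from -0.49 to 0.21, with a median of -0.09, so that replicate B overlapped their range. In reverse, the PHE libraries had 44.8 (A) and 49.9 RPM (B) within 250 kb of AT1G51860, against 38.4 and 39.1 around it, a log2 ratio of 0.23 and 0.35, in a range from -0.60 to 0.32 for the other libraries. The window that holds the PHE viewpoint had 36.1 and 33.1 RPM, and the next 2 towards the telomere had 66.2 and 59.0 and then 63.5 and 83.0, with H3K27me3 densities of 15.6% and 25.1%. The region was chosen after its values were seen and was not tested.

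The 6 fragments with the highest levels more than 1 Mb away on the viewpoint arm lay 1.28 to 2.40 Mb from the viewpoint, on both sides. The first, on chromosome 1 from 17844311 to 17848825, holds DGAT3, a diacylglycerol acyltransferase, and CHR18, a chromatin remodelling factor, and had 172 reads in A and 152 in B (493 and 556 RPM). A fragment with CH1, which makes chlorophyll b, followed with 430 and 446 RPM, 1.76 Mb from the centromere. MYB50, a transcription factor of the MYB family, had 433 and 395 RPM, TLP6, a tubby-like protein, 390 and 571, and AT1G56630, an alpha/beta hydrolase, 381 and 486. The fragment with UBQ12, a ubiquitin gene, had 407 and 362. The median level of the 9 viewpoints on other chromosomes was 0 to 21.0 RPM on these 6 fragments, and none of those viewpoints exceeded 67.3 RPM. This contrast cannot show a preference, since it sets the viewpoint's own arm against viewpoints on other chromosomes. The fragments were also chosen for their level in AT1G51860. H3K27me3 on them ran from 3.61% to 25.5% and H3K36me3 from 2.07% to 40.7%, so that the most read fragments were of no single chromatin kind. On the other arm of chromosome 1 the highest fragment, with 146 and 245 RPM, lay 8.30 Mb from the centromere and holds PDF1.4, a defensin-like protein, and JMT, which methylates jasmonic acid. The other 3 lay 2.14 to 2.84 Mb from it, at 98.5 to 117 RPM. One of these 3 holds FAB1D, which belongs to a family of phosphatidylinositol phosphate kinases.

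Other chromosomes received little. The mean level was 73.4 (A) and 83.2 RPM (B) per fragment on the viewpoint arm, 13.1 and 11.4 on the other arm of chromosome 1, and 5.33 and 3.84 on chromosomes 2 to 5, where 89940 and 50812 reads lay on 48406 kept fragments. The 8 arms of those chromosomes hardly differed. In A they ran from 4.83 RPM (left arm of chromosome 4) to 5.86 (left arm of chromosome 2), and in B from 3.39 to 4.01, with the left arm of chromosome 4 lowest in both. The other arm of chromosome 1 exceeded other chromosomes by 1.30 and 1.57 on the log2 scale, the range in the other libraries being -0.12 to 1.89.

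Along the arms of the other chromosomes the reads had a maximum near, but not at, the centromere. Relative to the mean of the library over other chromosomes, the level was 0.704 (A) and 0.630 (B) at 0.1 to 0.5 Mb from the centromere, 1.20 and 1.22 at 2 to 3 Mb, 1.0 and 1.03 at 6 to 8 Mb and 0.899 and 0.852 beyond 14 Mb. The low level at 0.1 to 0.5 Mb was common to all libraries, the others having 0.311 (SWN B) to 0.935 (PHE A). Of the 2539 fragments of that interval, 1067 lay on the right arm of chromosome 5. In intervals of 1 Mb the highest level lay between 2 and 5 Mb from the centromere on every one of the 8 arms, taken over both replicates. The left arms of chromosomes 2 and 4 end within 4 Mb of it, so that their maximum at 2 to 3 Mb lay in the outer part of the arm. Single replicates could differ. On the left arm of chromosome 4, A had 5.75 RPM at 1 to 2 Mb and 5.71 at 2 to 3 Mb. On the left arm of chromosome 5, A was highest at 4 to 5 Mb (6.5 RPM), where B had 3.51. On the other arm of chromosome 1 the maximum lay between 1 and 3 Mb (24.8 and 20.6 RPM at 1 to 2 Mb, 22.8 and 21.8 at 2 to 3 Mb).

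Arms were also divided by length into 3 equal parts, and the proximal part exceeded the distal part by 0.09 in A and 0.17 in B on the log2 scale (mean 0.13 ± 0.06, SD, n = 2). This was the highest value of the 13 viewpoints. PHE followed with 0.05, then hk4s, at the heterochromatic knob of chromosome 4, with -0.15, AT3G44380 with -0.38, YAO with -0.84 and SWN with -1.12. The mean of the 12 others was -0.84 and the lowest was CKI1 with -1.56 (difference 0.97, exact permutation over 13 viewpoints, two-sided, p = 0.0769, the smallest possible). Against the 4 others of the batch the difference was 0.75 (p = 0.4, exact permutation over 5 viewpoints, which can give no p under 0.2). By arm, the ratio was above 0 on 6 of the 8 arms in both replicates, from 0.09 to 0.33 in A, and below 0 on the left arm of chromosome 4 (-0.45 in A and -0.38 in B) and the right arm of chromosome 5 (-0.23 and -0.16).

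In windows of 100 fragments on chromosomes 2 to 5, AT1G51860 was compared with the mean of the viewpoints that do not lie on the window's own chromosome. PHE, MEA F6 and MEA F8, on chromosome 1 like AT1G51860, were thus always included. AT1G51860 was higher in 147 of 484 windows (30.4%) and lower in 93 (19.2%), together 49.6%, at an adjusted p under 0.05 (edgeR quasi-likelihood test, Benjamini-Hochberg). A call here says that these libraries differed by more than replicates do. With the 4 viewpoints of the batch alone as comparison, 63 windows were higher and 65 lower. The calls followed the distance from the centromere. Of the 43 windows at 1 to 2 Mb, 33 were higher and none lower, and of the 79 at 2 to 4 Mb, 52 were higher and 3 lower. Of the 63 windows beyond 12 Mb none was higher and 37 were lower. Nearest to the centromere, within 1 Mb, 17 of 50 windows were higher and 1 lower. In 32 of the 147 higher windows both AT1G51860 libraries exceeded all compared libraries, and in 15 of the 93 lower windows both fell below all of them. Over all 484 windows, called or not, these numbers were 32 above and 16 below. Scaled to all kept reads instead of those on other chromosomes, 5 windows were higher and 253 lower.

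**Figure D4:**
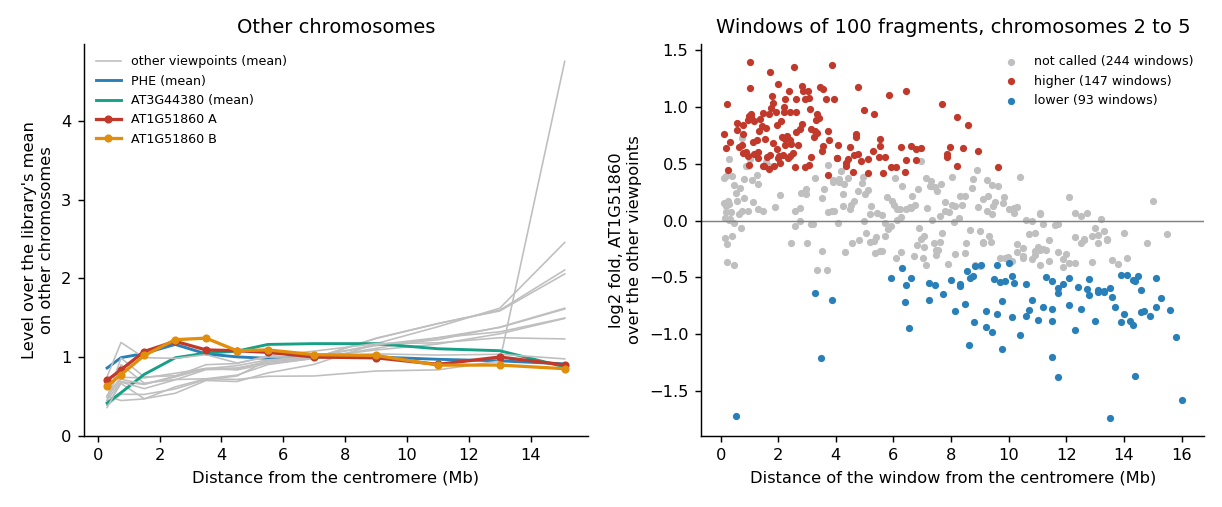
Left, level relative to the mean of each library on other chromosomes by distance from the centromere (Mb) for AT1G51860 A and B, the means of PHE and AT3G44380, and the other viewpoints (grey). Right, log2 fold of AT1G51860 over the other viewpoints in 484 windows of 100 fragments by their distance from the centromere, with 147 higher and 93 lower windows coloured. Windows up to 4 Mb lie mostly above 0 and those beyond 12 Mb mostly below.

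Among the 32 higher windows in which both libraries exceeded all compared ones, the highest by fold was a window on chromosome 2. It ran from 6023513 to 6247949, 2.53 Mb from the centromere. Its level, relative to the library mean on other chromosomes, was 1.5 in A (278 reads) and 2.31 in B (243 reads), against 0.43 to 1.47 in 20 compared libraries (log2 fold 1.35, edgeR adjusted p = 5.37e-07). It holds 26 protein-coding genes, among them PR1 and PRB1, pathogenesis-related proteins, and AGL44, a MADS-box factor of root growth. A window on the right arm of chromosome 4 (8642627 to 8837787) had 1.64 and 1.76 against 0.433 to 1.33 (log2 fold 1.18, edgeR adjusted p = 1.58e-06). It holds BARS1 and PEN1, which cyclise oxidosqualene to triterpenes, with 8 cytochrome P450 genes between and around them, and SDG2, a histone H3K4 methyltransferase. Compared with the batch alone its log2 fold was 0.36, with an edgeR adjusted p of 0.202. On chromosome 3, 2 adjoining windows from 10470613 to 10886335 (log2 fold 1.14 and 1.19) hold the ABC transporters ABCB15 to ABCB18 and ABCB19, the last an exporter of auxin. One at 17044016 to 17217275 (log2 fold 1.16) holds RPP13, a resistance gene, 3 genes of the leucine-rich repeat kinase list and PCL1, a component of the circadian clock. The windows at 15231844 to 15408352 with JAZ11, a repressor of jasmonate responses, and at 11491350 to 11696045 had log2 folds of 1.31 and 1.20. They hold 28 and 37 pseudogenes beside 17 and 14 protein-coding genes. The last of the 8, on chromosome 5 from 15111770 to 15306201, holds ASF1B, a histone chaperone (log2 fold 1.18). In 7 of the 8 the distance from the centromere was 1.73 to 3.56 Mb, and in the window with BARS1 it was 4.78 Mb.

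Among the lower windows in which both AT1G51860 libraries fell below all compared ones, the 5 lowest by fold lay 6.55 to 13.5 Mb from the centromere. The 1 window called lower within 2 Mb of a centromere, at 0.522 Mb, was not among these 5. Its levels were 1.44 (A) and 0.857 (B), against a median of 4.38 in the compared libraries. The lowest of the 5 was the end of the left arm of chromosome 3 (1 to 184188), with levels of 0.662 (A) and 0.333 (B) against 0.770 to 3.9 in 22 compared libraries (log2 fold -1.74, edgeR adjusted p = 5.37e-07). It holds 65 protein-coding genes, among them KIN10, a catalytic subunit of the energy-sensing kinase SnRK1. The end of the left arm of chromosome 5 (1 to 180757) followed, at 0.667 and 0.505 against 0.707 to 3.68 (log2 fold -1.38). The other 3, with log2 folds of -1.10 to -0.95, hold SPL12, which acts in phase change, FLD, a repressor of FLC, and CO, the photoperiod gene of flowering.

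Single fragments on other chromosomes had few reads. Apart from a fragment of 167 bp on chromosome 4 with no gene (53 reads in A and 31 in B), the highest was one with RIN13, a protein that binds the resistance protein RPM1 (31 and 25 reads, 88.9 and 91.4 RPM). The fragments with UPL4, a ubiquitin ligase, and with ASHR2, a SET domain protein, had 24 and 19 and 21 and 15 reads. On the UPL4 fragment the median of 11 other viewpoints was 24.9 RPM and the highest 62.8, against 68.8 and 69.5 RPM here. On the ASHR2 fragment the median of 10 others was 1.86 RPM and the highest 39.6, against 60.2 and 54.9. These fragments were chosen for their level in AT1G51860. At such counts a single ligation product amplified many times cannot be told from several.

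Receptor kinase genes elsewhere in the genome were read about as often as their surroundings. Of 164 genes whose description names a leucine-rich repeat and a kinase, 10 stand in the cluster and 113 lie on chromosomes 2 to 5, on 457 kept fragments. Their reads were 0.962 times in A and 1.01 times in B what the mean of the surrounding windows of 25 fragments gave. For all 20288 protein-coding genes of these chromosomes the ratio was 1.03 and 1.02. The knob of chromosome 4, a stretch of heterochromatin in the arm (1571273 to 2382639, H3K9me2 density 17.6%), had 1.27 (A) and 1.15 (B) times the library mean and 0.35 and 0.15 on the log2 scale more than its flanks. PHE had 0.57 and 0.14 and AT3G44380 0.04 and 0.05, and the other 10 libraries of viewpoints outside chromosome 4 lay between -0.81 and -0.16.

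The window profile on other chromosomes was most like that of AT3G44380, with a mean Spearman rho of 0.403 over 360 windows (4 pairs of libraries, 0.352 to 0.430), and then PHE with 0.337 over 484. Replicates A and B of AT1G51860 gave 0.524. It was least like that of FLC, with -0.149 over 333 windows. These are descriptions over windows that share libraries.

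The contacted fragments of other chromosomes carried about as much H3K9me2 as all fragments there. Weighted by reads, the mean density relative to the plain mean was -0.02 in A and -0.05 in B on the log2 scale (mean -0.04 ± 0.02, SD, n = 2). The other viewpoints averaged -0.31, from -0.85 (MEA F6) to 0.19 (hk4s), and AT1G51860 ranked 4 of 13 (difference 0.27, exact permutation, two-sided, p = 0.462). Against the 4 others of the batch the difference was 0.23 (exact permutation over 5 viewpoints, p = 0.8). Compared only among fragments at the same distance from the centromere, in bins of 1 Mb, the value was 0.12, against 0.23 for the others, so that the order turned round (difference -0.11, exact permutation, p = 0.385). H3K27me1 behaved alike, with 0.00 in both replicates against a mean of -0.23.

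Of the marks of active genes, H3K36me3, H3K4me3 and H3K9Ac were at or a little below the mean. H3K18Ac (0.04 in A and 0.05 in B) and H3K36me2 (0.02 and 0.05) were a little above it. H3K36me3 gave -0.02 and -0.01 (mean of the others 0.09, difference -0.11, exact permutation p = 0.462; -0.14 against the batch alone, exact permutation p = 0.2), H3K4me3 gave -0.08 and -0.07 and H3K9Ac -0.04 and -0.02. Within bins of distance H3K4me3 (-0.08, others -0.04 to 0.05) and H3K9Ac (-0.04, others -0.03 to 0.12) were the lowest of all 13 viewpoints by the mean of both replicates, although H3K9Ac of replicate B (-0.03) was not below PHE. Each reached the smallest possible p of 0.0769 in an exact permutation, and 0.461 after Benjamini-Hochberg adjustment over 12 densities. On the viewpoint arm both were the lowest of 13 by the mean of both replicates (-0.16 for H3K4me3 and -0.13 for H3K9Ac). The exact permutation gave p = 0.154 and p = 0.231, both 0.616 after Benjamini-Hochberg adjustment. The single libraries overlapped, since replicate B (-0.135 and -0.108) was not below PHE A (-0.136 and -0.124). H3K27me3 was raised, at 0.18 in A and 0.23 in B, second to AG with 0.66, but the other viewpoints were all above 0 too (mean 0.16, difference 0.04, exact permutation p = 0.769). In windows 1 to 3 Mb from the centromere, split into 3 groups of equal size, the group richest in H3K27me3 had 1.26 (A) and 1.29 (B) times the library mean, and the poorest group 0.992 and 0.986. At 3 to 5 Mb it was 1.20 and 1.35 against 0.971 and 0.939, but at 0.1 to 1 Mb it was 0.883 and 0.680 against 0.688 and 0.683, so that replicate B showed no such order there. Groups by H3K36me3 differed in the other direction at 3 to 5 Mb, with 1.02 and 1.09 for the richest and 1.23 and 1.40 for the poorest. Beyond 5 Mb the richest had 0.951 and 0.879 against 1.01 and 1.11. Nearer to the centromere the order was reversed. There the richest had 1.16 and 1.16 against 1.02 and 1.03 at 1 to 3 Mb, and 0.991 and 0.860 against 0.588 and 0.538 at 0.1 to 1 Mb. The groups by H3K9me2 differed less at 1 to 5 Mb and changed their order. At 1 to 3 Mb the richest had 1.11 and 1.08 against 1.17 and 1.18 for the poorest. At 3 to 5 Mb the richest had 1.13 and 1.25 against 1.08 and 1.14. Annotated transposable element genes were 0.25 (A) and 0.06 (B) lower per kb among the contacted fragments than among all on the log2 scale, by their mean the least depleted of 13 viewpoints (mean of the others -0.86, exact permutation p = 0.0769, 0.493 after adjustment over 16 features). The single libraries overlapped, with hk4s B at -0.09. Annotated transposable elements were at -0.16 and -0.08, and AT1G51860 ranked 3 of 13 there. Longer fragments received more reads, and the mean length weighted by reads was 2536 bp in A and 2162 bp in B against 1822 bp, so that length moved with these densities. Its part in them was not tested.

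**Figure D5:**
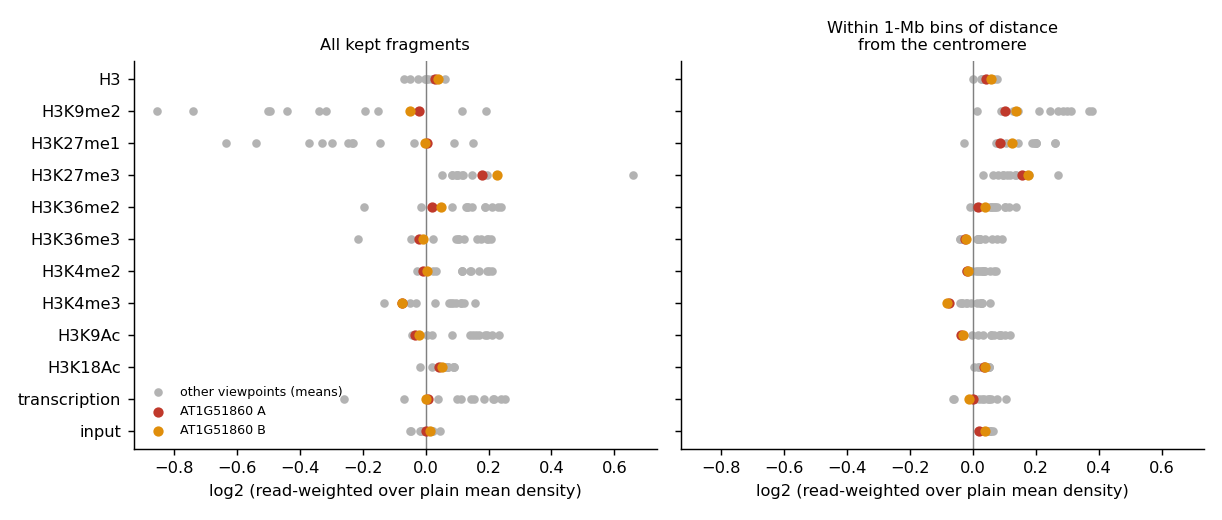
log2 ratio of the read-weighted to the plain mean density of 12 features over fragments of other chromosomes, for AT1G51860 A and B and the means of the other 12 viewpoints (grey), over all kept fragments (left) and within bins of 1 Mb of distance from the centromere (right). H3K9me2 of AT1G51860 lies near 0 at the left, where most viewpoints lie below, and at the right H3K4me3 of both replicates lies below all other viewpoints, while H3K9Ac of replicate B (-0.0327) lies beside PHE (-0.0332).

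Many reads of these libraries started at NlaIII ends, 325761 in A and 498415 in B on the kept fragments, or 48.3% and 64.6% of all kept reads. They showed the same shoulder, with 68.1 (A) and 51.0 RPM (B) at 0.5 to 1 Mb and 53.1 and 37.5 at 2 to 3 Mb, but a lower core, with 1540 and 1020 RPM at 1 to 10 kb. A larger part of them lay on other chromosomes, 44.5% and 56.6%. With both kinds of ends summed, AT1G51860 had 50.4% of its reads on the viewpoint arm, against 50.9% for the other viewpoints, a difference of -0.49 points. The second enzyme was DpnII for PHE and 5 more of the compared viewpoints, whose second ends are thus of another kind. The H3K9me2 ratio of the NlaIII-end reads was 0.74 and 1.05. The most read fragment, which was also the most read in the MEA F6, MEA F8, SWN, hk4s and YAO libraries, on chromosome 3 from 14193385 to 14203799, held 4.72% and 7.32% of the NlaIII-end reads on other chromosomes and carried 1497 genomic DNA reads, and without fragments of unusual genomic DNA coverage the ratio was -0.11 and -0.09.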

How the data were processed

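Data from 26 4C libraries of 13 viewpoints were used, with groups taken from the sample labels. The authors split the reads by primer, aligned them to TAIR10 with Bowtie 0.12.7 (version from the submitters' processing notes), shared reads with several matches among fragments and deposited expected counts for the HindIII end and the second-cutter end of each HindIII fragment, without filter or normalization. The deposited files also give genomic DNA reads, likewise expected counts, and signal densities (percentage of a fragment's bases covered) of H3, histone modifications, transcription and input, and annotation scores, which are numbers of annotated features per fragment. A further pair of read columns that the sources do not explain was not used.

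HindIII-end counts were scaled to RPM on fragments at least 1 kb from the viewpoint and 100 kb from a centromere. Total HindIII-end reads and the share kept are given for each AT1G51860 library in the text. Sites, genes and primers were located in the TAIR10.1 reference, in which all 66846 fragments start and end at HindIII sites. The sources name different second enzymes for this viewpoint, and NlaIII was taken since primer 2 ends in its site. Single values were compared by an exact permutation over viewpoints (replicate means), two-sided. Windows of 100 kept fragments (the last of an arm with at least 50) were tested with the edgeR 4.0.16 quasi-likelihood test on rounded counts in a model of 13 groups, with library sizes from the reads on other chromosomes, no TMM, and Benjamini-Hochberg adjustment over 484 windows. DESeq2 was an alternative. The test was checked on simulated counts. Alternatives covered the kind of ends, filters on second sites, genomic DNA and distance, a limit on single fragments, the batch, each replicate and the replicate letter. Regions named are the viewpoint and its gene cluster, the 8 highest and 5 lowest called windows outside the range of all compared libraries, and the 18 fragments highest in the lower replicate. Scripts ran in Python 3.11.15 and R 4.3.3. Libraries of a letter shared a sequencing lane within a batch, per the methods, so the letter was also fitted as a block. Within the batch of AT1G51860, deviations of same-letter libraries correlated by 0.00758 to 0.19 (10 pairs), read-weighted fragment length was 2486 to 2747 bp in A and 2142 to 2236 bp in B, and the viewpoint arm share was higher in B for all 5 viewpoints. The viewpoint, its regions and lists were chosen with earlier results of these data known. The comparisons of the viewpoint arm share, of the level at 0.5 to 1 Mb over that at 2 to 3 Mb and of H3K27me3, and the region around PHE, were added after the data had been seen.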

Additional observations from a re-analysis of the deposited data

How the results depend on the processing

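The read share within 1 Mb differed from that of the other viewpoints by 2.80 percentage points, by -6.63 with both kinds of ends summed, by -6.40 against the batch alone and by -0.0541 within 100 kb. With one replicate left out it was -0.62 to 6.22. The excess in H3K9me2 turned to -0.11 within bins of distance from the centromere, and that in the viewpoint arm share to -0.49 points with both ends summed. The comparisons of the 2 sides, of the proximal and distal parts of arms and of H3K36me3 kept their direction under 11 of 11 alternatives, but not their size. The difference between the sides went from -0.21 to -0.02 with 500 kb kept out around centromeres, -0.04 against the batch alone and -0.07 with plain means, and that in H3K36me3 from -0.11 to -0.00908 with both ends summed and -0.05 within bins of distance. The difference between the parts of arms was 0.75 to 1.01. None of these designs could reach a p of 0.05. The contact zone of 1.67 Mb was 1.76 Mb with ends summed, 1.53 with the filter on second sites, 1.28 with 500 kb kept out around centromeres, 1.07 with fragments limited to the 99th percentile, 1.08 and 5.06 at 3 and 1.5 times the median, 2.01 in windows of 100 fragments and 1.6 to 1.63 in single replicates. Windows called higher were 147, and 63 against the batch alone, 5 scaled to all kept reads and 74 to 89 without a replicate. Windows called lower were 93, and 253 scaled to all kept reads and 44 to 75 without a replicate. The cause of these shifts was not tested. With the replicate letter as a block, 124 windows were higher and 95 lower, of which 124 and 88 were among the main calls. The block changed no other call and left the single values as they were by construction. Of 182 values of named windows, 176 kept their call, 6 fell short of it and 0 reversed. The thin coverage of replicate B on other chromosomes, with reads on 25.1% of fragments, limits single fragments there.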
